A study of Ambystoma mexicanum with 7 samples.

Results

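The sites described here are 802 narrow stretches of accessible chromatin that were called in regenerating, systemically activated and intact limb tissue of the axolotl (Ambystoma mexicanum), a salamander able to regenerate whole limbs. Each is a peak of the blastema list on a named chromosome arm that was under 500 bases wide and shared at least 1 base with a peak of the systemically activated list and with a peak of the intact list. They were 802 of the 168368 peaks in the blastema list, of which 119798 were on named arms and under 500 bases wide. The sites were selected on blastema width and on overlap with both limb lists. These values, and all others that move with width or with that overlap, are given as descriptions with no test.

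ATAC-seq tags open DNA with the Tn5 transposase, and a peak marks a place where tags pile up above their surroundings. Open chromatin is found mainly at promoters, enhancers and insulators, where bound proteins keep nucleosomes away. Openness alone does not tell promoters, enhancers and insulators apart. The width of a called peak depends on the size of the open stretch and also on how deeply the library was sequenced.

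The blastema group held 2 samples of blastema with wound epidermis, the progenitor mass that forms on an amputated limb together with the skin that covers it. The systemically activated group held 2 samples of limb tissue from wild-type animals in which an amputation elsewhere in the body brings cells of uninjured limbs back into the cell cycle. The intact group held 3 samples of homeostatic wild-type limb tissue. Blastema samples were wild type as well. The series design gives 14 days after amputation as the time for both limb groups, including the intact limbs that are labelled homeostatic. No day is given in the sources used here for the blastema. In all groups, live cells with a 4C DNA content, reached once a cell has replicated its DNA, were sorted before tagging. Whole tissue was dissociated, so each list mixes cell types. No marker gene could be read from peaks without an annotation of the files' build, so the labelled tissues were not checked against markers here.

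Each group had 1 list of peaks, made from its samples together, so no site had a value per sample and replicate error could not be measured. Intervals below are exact (Clopper-Pearson) 95% intervals over peaks and cover counting error only. The lists differed in depth. Deeper lists have a higher lowest background at their summits, and this was 2.49 reads per base for blastema, 0.375 for systemically activated limb and 0.529 for intact limb. The blastema list held 168368 peaks, the systemically activated one 17326 and the intact one 25843. A fold below is the pileup plus 1 at the summit over the background plus 1, and the fold and −log10 q of each peak are the authors' own values, used here to describe and rank peaks within 1 list.

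Few narrow blastema peaks were found in both limb lists. The share was 0.669% of narrow blastema peaks on named arms (interval 0.624 to 0.717), against 7.57% of blastema peaks of any width. It was 17.6% for peaks of medium width, from 500 to under 1000 bases, and 59.2% for broad peaks of 1000 bases or more. These shares include the rule itself and nothing further is read from them. Within the narrow peaks the share climbed with width, and was 0.183% from 200 to under 300 bases, 0.863% in the next 100 bases and 2.27% in the last 100 bases below the limit. It also climbed with strength. Of the narrow peaks in the highest 10% of the blastema list by −log10 q, 369 of 1712, or 21.6%, were in both limb lists, against 8 of 16226, or 0.0493%, in the lowest 10%. A further 981 narrow blastema peaks were overlapped by the systemically activated list alone, 2877 by the intact list alone, and 115138 by neither.

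The folds of the 3 peaks named on each side of the limit overlapped. Among peaks of equal width, those of highest −log10 q were named. The 3 members named there, each 499 bases wide, had folds of 7.95 (8q segment 1, 433460661 to 433461159), 8.22 (4p segment 0, 45523547 to 45524045) and 4.41 (8q segment 1, 124365617 to 124366115). The 3 shared peaks named at 500 bases had folds of 6.42 on 9p from 220844479 to 220844978, 10.3 on 14p from 169117027 to 169117526 and 5.22 on 13q from 329586252 to 329586751. At the other end, at least 3 members had the smallest width that the lists hold, 200 bases. The 3 named come first by sequence name among members of that width. Their folds were 5.44 (11q segment 1, 99191501 to 99191700), 2.98 (13p, 119665455 to 119665654) and 3.30 (1q segment 0, 38477523 to 38477722).

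The 802 sites included weak and strong peaks of the blastema list. Their blastema fold ran from 2.22 to 25.8 with a median of 4.60, and their −log10 q from 1.90 to 217 with a median of 11.2. The median pileup at the summit was 38 reads and the median background was 6.17, each taken over the sites on its own. Of the 802 sites, 406 were 400 bases wide or more, 266 were from 300 to under 400 bases, and 130 were narrower. Width and fold did not rank together among the members, with a Spearman rho of 0.01 over 802 sites that share the same libraries. The middle width band had the highest median −log10 q, 13.3, against 11.3 for the widest and 6.49 for the narrowest band.

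A small number of these sites carried very high folds. Of the 100 highest folds in the blastema list, 42 belonged to the 802 sites (interval 32.2 to 52.3%), although the sites made up 0.476% of the list. Of all blastema peaks on named arms, 0.0557% were among these 100. The share of narrow peaks in both limb lists climbed with −log10 q, as given above. Strength is thus tied to the rule, and the counts of high folds here, in blastema and limb lists, are descriptions. A further 40 of the 100 were shared peaks of medium width and 5 were broader shared peaks. By −log10 q the order was different: 18 of the 100 highest blastema values belonged to the 802 sites, 46 were shared peaks of medium width and 31 were broader. A fold of at least 10 was reached by 130 of the 802 sites, or 16.2%, by 185 of 6049 shared peaks of medium width, or 3.06%, and by 39 of 5528 broader ones, or 0.705%. Among the other narrow peaks it was reached by 0.917% with the systemically activated list alone, 1.29% with the intact list alone and 0.0287% with neither. Of the 100 highest folds in the limb lists, 31 of the systemically activated and 36 of the intact list overlapped one of the 802 sites, which overlapped 4.63% and 3.10% of the peaks in those lists. Shared peaks of medium width took 46 and 48 of these places and broader ones 20 and 13. Of the 802 sites, 16 were among the 100 highest folds of all 3 group lists.

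**Figure D1:**
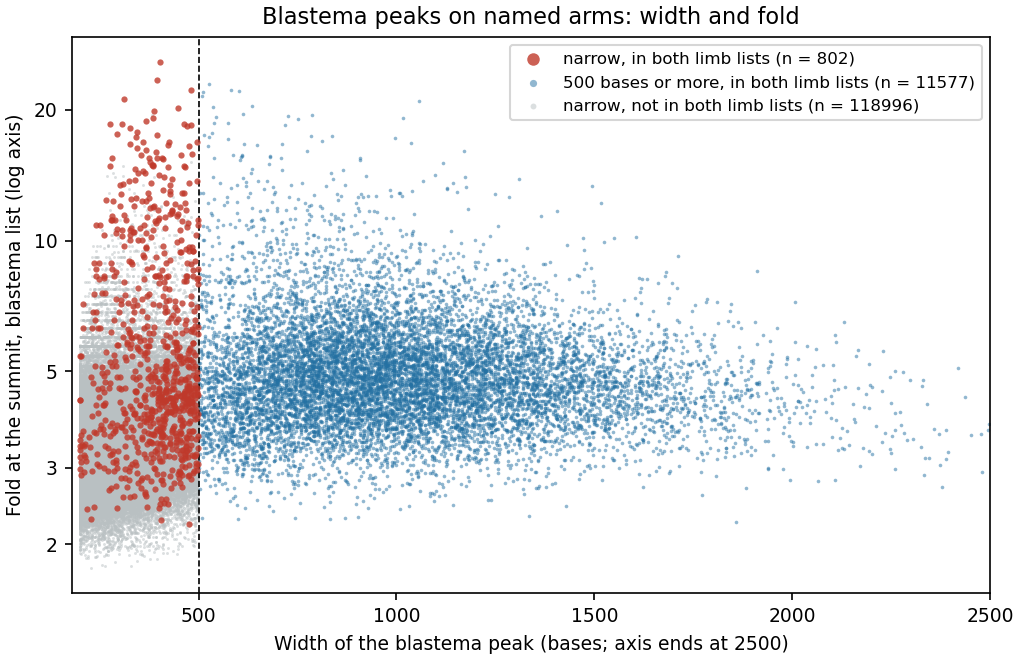
Fold at the summit in the blastema list (log axis) against blastema peak width in bases for narrow peaks in both limb lists (red), wider peaks in both limb lists (blue) and narrow peaks not in both (grey), with a dashed line at 500 bases. Red points reach a fold of 25.8, and 130 of the 802 lie at a fold of 10 or more.

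The site with the highest fold of the whole blastema list was one of them. It lay on 3p segment 1 from 237846463 to 237846864, with a fold of 25.8 in blastema, 23.0 in systemically activated limb and 25.8 in intact limb. Its pileups were 168, 57 and 78 reads in the same order of lists, and it ranked 1, 6 and 2 by fold within them. The second was 367593423 to 367593818 on the same segment, with folds of 23.4 in blastema, 24.7 in systemically activated limb and 25.2 in intact limb. All 3 summits of that site lay within 6 bases. Both sites thus stood among the 6 highest folds of every group list.

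The next 3 sites by blastema fold were also high in the limb lists. On 9q segment 0 from 329360509 to 329360990 the fold was 22.2 in blastema, 15.5 in systemically activated limb and 19.7 in intact limb. On 5p segment 2 from 426833456 to 426833767 it was 21.2, 11.4 and 15.4 in the same order, over a blastema background at the lowest value of the list. On 13q from 29241851 to 29242297 it was 20.1, 13 and 19.5. Their ranks by fold were 4, 9 and 13 in the blastema list, 48, 136 and 87 for systemically activated limb and 16, 57 and 17 for intact limb.

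When sites were ordered by their lowest percentile of −log10 q over the 3 group lists, the 3p pair took ranks 1 and 4. The second was on 4p segment 0 from 386237840 to 386238306, with pileups of 237 reads in blastema, 99 in systemically activated limb and 132 in intact limb. The third was on 7q segment 2 from 345887809 to 345888272, with pileups of 187, 69 and 70 reads. The fifth, on 7q segment 2 from 349953804 to 349954099, differed from the rest in its surroundings. Its pileups of 211, 108 and 133 reads stood on backgrounds of 35.9, 11 and 14.5, so its folds were only 5.75, 9.11 and 8.67. All 5 were above the 99.7th percentile of −log10 q in each group list. Of the 802 sites, 89, or 11.1% (9.01 to 13.5), were at or above the 90th percentile in all 3 lists. A further 54, or 6.73%, were below the 50th in all 3. Among all wider shared peaks these shares were 8.25% (7.75 to 8.77) and 0.173%. The broad ones among them had 9.95% (9.17 to 10.8) at or above the 90th, and 0 of 5528 below the 50th.

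Order by strength was partly kept between lists. Across the 802 sites the Spearman rho of the fold was 0.68 between blastema and systemically activated limb, 0.77 between blastema and intact limb and 0.68 between the limb lists. For the fold, shared peaks of medium width had 0.55, 0.66 and 0.56, and broader ones 0.56, 0.68 and 0.59. For −log10 q the rho was 0.56, 0.64 and 0.55 at the sites. It was near this at medium width, 0.50, 0.60 and 0.50, and at broader peaks, 0.52, 0.60 and 0.55. For the local background at the summit of the 802 sites it was higher, 0.86, 0.89 and 0.96. The points are sites of the same 3 lists, and the shallower limb lists have pileups with a median of only 12 reads in systemically activated limb and 15 in intact limb. Of the sites, 118 were in the top 25% of the 802 by −log10 q in all 3 lists and 41 were in the bottom 25% in all 3.

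Full discordance was seen at few sites. Neither it nor the full agreement above was counted for wider shared peaks. A single site was in the top 25% in blastema and the bottom 25% in both limb lists, on 2q segment 2 from 179821221 to 179821545, with folds of 6.14 in blastema, 5.39 in systemically activated limb and 5.04 in intact limb. A single site was in the bottom 25% in blastema and the top 25% in both limb lists, on 3q segment 0 from 80270102 to 80270458, with folds of 2.85, 6.86 and 6.31. Both were picked out after their values were seen. Between the limb lists, 13 sites were in the top 25% in systemically activated limb and the bottom 25% in intact limb, and 11 the other way round.

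**Figure D2:**
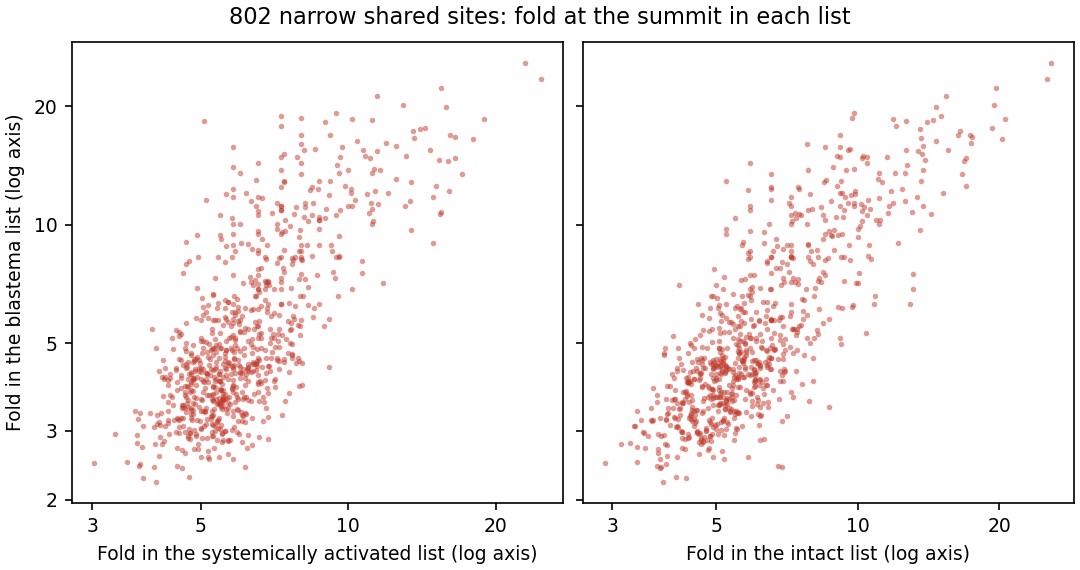
Fold at the summit of the 802 sites in the blastema list (vertical, log axis) against the fold of the overlapping peak in the systemically activated list (left) and the intact list (right), 1 point per site. The Spearman rho is 0.68 on the left and 0.77 on the right, and the vertical values are the same in both panels.

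The limb peaks at these sites were mostly narrower still. Median width was 400.5 bases in the blastema list, 256 for systemically activated limb and 295.5 for intact limb, an order that depth follows too, and the part of depth in it was not tested. At 618 of 802 sites, or 77.1%, both limb peaks were narrower than the blastema peak. This was a lower share than the 98.9% of all wider shared peaks. The systemically activated peak was wider than the blastema peak at 89 sites, or 11.1% (9.01 to 13.5), and the intact peak at 140, or 17.5% (14.9 to 20.3). Both were wider at 51 sites. Among all wider shared peaks, the systemically activated peak was wider than the blastema peak at only 0.199% and the intact peak at 0.959%. With the group lists cut to equal length the systemically activated peak was wider at 2.32% and the intact peak at 8.70% of sites. That cut kept the peaks of highest −log10 q and left 345 sites. It changed no width and did not match the lists in depth. The blastema width was used to choose the sites, so these counts are descriptions. The wider limb peaks lay mainly at weak sites. In the lowest 25% of the 802 by blastema −log10 q, the intact peak was wider at 69 of 201 sites, against 15 of 201 in the highest 25%, and the systemically activated peak at 54 against 4.

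The 3 sites with the largest ratio of the narrower limb peak to the blastema peak in width all had a blastema fold below the median of the 802 sites. On 2q segment 2 from 338386292 to 338386538, the blastema peak was 247 bases wide, the systemically activated peak 509 and the intact peak 469. On 2q segment 2 from 147446813 to 147447184 the widths were 372, 661 and 659 bases, and the 3 intervals had only 45 bases in common. On 8p segment 0 from 35615601 to 35615927 they were 327, 561 and 577 bases, with the whole blastema peak inside both limb peaks. The blastema folds of these sites were 4.55, 3.61 and 3.01.

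A limb peak seldom bridged several blastema peaks. At 12 of 802 sites the systemically activated peak, and at 16 the intact peak, also overlapped another blastema peak. The intervals of the 3 group lists had a median of 203.5 bases in common, and 12 sites had no base common to all 3. All 802 sites were overlapped by a peak of the all-sample list, which includes the same reads, with a median width of 567.5 bases there. At 85 sites, or 10.6%, the all-sample peak also took in another blastema peak. Where an all-sample peak overlapped, this share was 5.70% for all wider shared peaks and 7.46% for narrow peaks not in both limb lists. It was higher for narrow peaks with the systemically activated list alone, 12.6%, and with the intact list alone, 15.0%.

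The distance between summits was not part of the rule, but the limit on blastema width bounds it in bases, so the counts in bases are descriptions. Both limb summits lay within 50 bases of the blastema summit at 293 of 802 sites, or 36.5% (33.2 to 40), against 2301 of 11577 shared peaks of 500 bases or more, or 19.9%. Taken singly, the systemically activated summit was that close at 54.9% of sites and the intact summit at 53.7%. The median distance from the blastema summit was 45 bases for the systemically activated summit and 44 for the intact summit. As a share of blastema width, the larger of the limb distances had a median of 0.199 at the 802 sites, 0.153 at shared peaks of medium width and 0.125 at broader ones. The summits at the 802 sites were thus closer in bases and farther apart relative to width. The share of 36.5% was 64.0% with a −log10 q of at least 5 in all lists.

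Agreement of summits went with strength. Both limb summits were within 50 bases at 21 of the 201 weakest sites by blastema −log10 q, or 10.4% (6.58 to 15.5), at 25.5% and 38.0% of the 2 groups of 200 sites between them, and at 145 of the 201 strongest, or 72.1% (65.4 to 78.2). Among sites with a fold of at least 10 it was 96 of 130, or 73.8%. At a like −log10 q the narrow sites had closer summits in bases than wider shared peaks in most bands. From 20 to under 40 the share was 59.9% (51.1 to 68.1) at narrow sites, 30.2% (28.2 to 32.3) at medium width and 20.2% (18.7 to 21.8) at broader peaks. Below 5 it was 8.15% at narrow sites and 7.95% at medium width, with overlapping intervals. Relative to width, the narrow sites were not closer in any band. The median distance over width was 0.486 at narrow sites and 0.328 at medium width below 5, 0.114 and 0.112 from 20 to under 40, and 0.0612 and 0.0560 from 40.

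**Figure D3:**
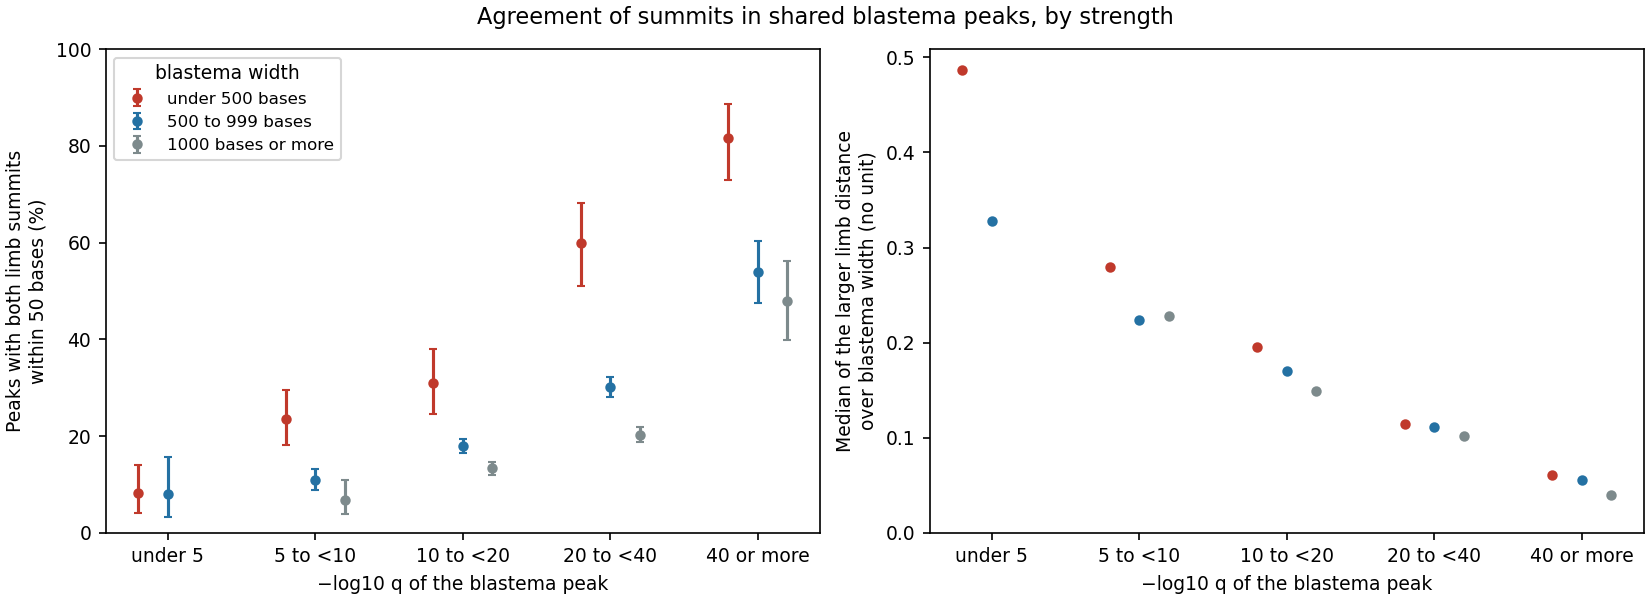
Percentage of shared blastema peaks with both limb summits within 50 bases of the blastema summit (left, with exact 95% intervals) and median of the larger limb distance over blastema width (right), by −log10 q of the blastema peak and by blastema width; bands with fewer than 20 peaks are left out. At a −log10 q of 40 or more the share is 81.7% under 500 bases, 54.0% at medium width and 48.0% in broader peaks, while the narrow sites have the highest distance over width in every band.

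The summit also lay near the middle of the interval in most strong sites. It fell in the middle 20% of the blastema interval at 435 of 802 sites, or 54.2% (50.7 to 57.7), against 43.6% of shared peaks of medium width, 34.6% of broader ones and 35.8% of narrow peaks not in both limb lists. Narrow peaks with the systemically activated list alone had 40.3%, and those with the intact list alone 42.8%. Among the 802 it was 76.1% in the strongest 25% and 30.3% in the weakest 25%. By width it was 58.5% under 300 bases, 74.8% from 300 to under 400 and 39.4% from 400.

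At the 3 sites with the greatest spread, the summits marked different places. On 5q segment 2 from 355698268 to 355698636 the systemically activated summit was 81 bases and the intact summit 604 bases from the blastema summit. On 1q segment 2 from 468353549 to 468353918 these distances were 344 and 256 bases, on opposite sides. On 7q segment 1 from 306860674 to 306861091 they were 131 and 524 bases, and only 1 base was common to the 3 intervals.

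**Figure D4:**
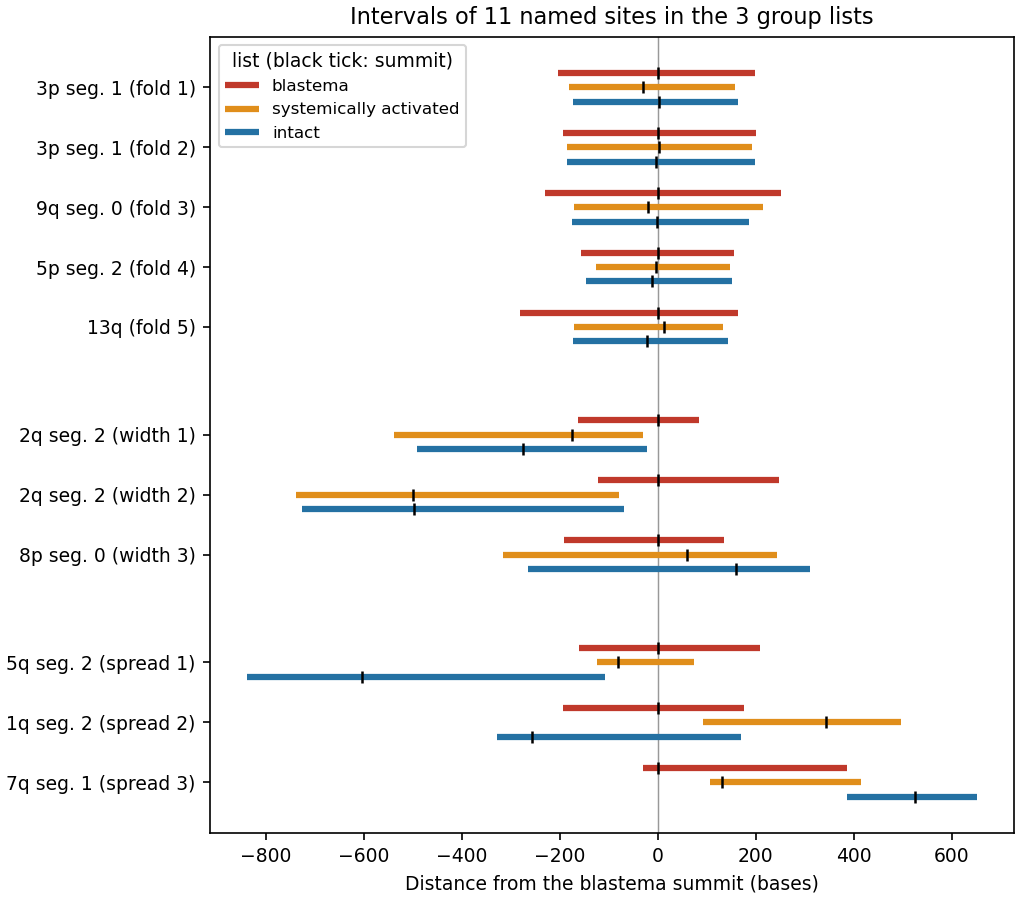
Intervals (bars) and summits (black ticks) in the blastema, systemically activated and intact lists, in bases from the blastema summit, at the 5 sites of highest blastema fold, the 3 with the largest ratio of the narrower limb width to the blastema width and the 3 with the greatest spread of summits. The 5 sites of highest fold have spreads of at most 35 bases, and the last 3 have spreads of 604, 600 and 524 bases.

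Many of the sites stood close to another blastema peak. Another blastema peak lay within 1 kb of 208 of 802 sites, or 25.9% (22.9 to 29.1), against 16.5% of all blastema peaks on named arms. The share was 18.4% for shared peaks of medium width, 10.1% for broader ones and 16.4% for narrow peaks in neither limb list. Narrow peaks in 1 limb list had shares whose intervals overlapped that of the 802 sites, 22.6% (20.0 to 25.4) with the systemically activated list alone and 27.2% (25.6 to 28.9) with the intact list alone. The share at the sites was 13.3% with a fold of at least 5 in all lists and 15.4% with the group lists cut to equal length. Both settings also removed blastema peaks, with 17326 left by the cut, so fewer neighbours remained by construction. The share of all blastema peaks was not recomputed under these settings, so 13.3% and 15.4% cannot be set against 16.5%. Of the 208 neighbours, 133 were narrow peaks that were not in both limb lists, 35 were wider peaks not in both, 26 were wider shared peaks and 14 were other sites of the 802. The 208 sites stood on a median background of 8.63 reads, against 4.44 for the 223 sites with no blastema peak within 50 kb.

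Backgrounds were split in the same way. At 118 of 802 sites, or 14.7% (12.3 to 17.4), the summit stood at the lowest background of the blastema list, against 8.42% of all blastema peaks on named arms, 59 of 6049 shared peaks of medium width and 4 of 5528 broader ones. Among the other narrow peaks it was 10.9% (9.03 to 13.03) with the systemically activated list alone, 14.0% (12.8 to 15.4) with the intact list alone and 10.4% with neither. The share at the sites was 28.8% with a fold of at least 5 in all lists and 9.24% with a width limit of 600 bases. The background was over 2 times the lowest at 495 of 802 sites, or 61.7% (58.3 to 65.1). For narrow peaks with the systemically activated list alone it was 58.8% (55.7 to 61.9). With the intact list alone it was 55.8% (54.0 to 57.6), and with neither 41.0%. Shared peaks of medium width had 90.9% and broader ones 97.9%. The 118 sites at the lowest background had a median fold of 8.30, and the 495 sites with a background over 2 times the lowest had one of 4.17. Their median blastema pileups were 28 and 41 reads. The fold divides by the background, so the difference in fold and the higher share with the fold filter follow in part from its definition. No control library is among the samples. The part that reads of a peak and of its neighbours have in its background was not tested. The backgrounds by width and by spacing are therefore descriptions.

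The most isolated sites lay megabases from any other blastema peak. The first, on 14q from 179028931 to 179029171, was 3.66 Mb from the next blastema peak. The systemically activated and intact peaks there were the same interval, 179028929 to 179029155, with pileups of 28 reads in blastema, 10 in systemically activated limb and 11 in intact limb, each over the lowest background of its list. The second and the third by isolation were 2.03 Mb (7q segment 0, 22808274 to 22808589) and 1.81 Mb (3p segment 1, 69827988 to 69828410) from their nearest neighbours. Their blastema folds were 5.30 and 8.30.

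The median gap to the nearest other site of the set was 7.12 Mb, and 771 of 802 had no other within 5 kb. The set is sparse, at 3.0 sites per 100 Mb, and no other set of like size was measured. These gaps therefore do not tell whether the sites stand closer together or farther apart than their number implies. There were 12 pairs, 1 group of 3 on 4p, which includes the 4p site of high pileup named above, and 1 group of 4. The group of 4 was on 2q segment 0, at 10313089 to 10313422, 10315297 to 10315616, 10315811 to 10316211 and 10318633 to 10319076. Its blastema folds were 7.06, 5.85, 8.33 and 6.50, on backgrounds between 13.6 and 17.3 reads. All 4 were at or above the 99.6th percentile of −log10 q in the blastema list. In systemically activated limb their folds were 6.53, 6.07, 9.56 and 5.02, and in intact limb 7.45, 5.56, 10.5 and 5.02. The third site of the group was thus the highest in each list.

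All 28 arms of the 14 chromosomes held some of the sites, at 3.0 per 100 Mb up to the last peak of each arm. As a share of the narrow blastema peaks of an arm they ran from 0.443% on 10p (23 sites, 0.281 to 0.664) to 1.35% on 14p (13 sites, 0.722 to 2.3). The interval of 4 arms did not hold the 0.669% of all arms. These were 10p below it, and 12p with 1.33%, 12q with 1.01% and 14p above it. With 28 intervals at 95%, some are outside by counting error alone, and peaks on an arm are not independent. As a share of all shared peaks of an arm the range was 4.59% on 10p to 11.2% on 12p, around 6.48% for all arms. By this share the intervals of 10p, 12p, 12q and 14p all held the value of all arms. The 2 arms whose intervals did not were 3q with 4.64% and 7q with 10.1%, so the arms that stood out changed with the denominator.

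**Figure D5:**
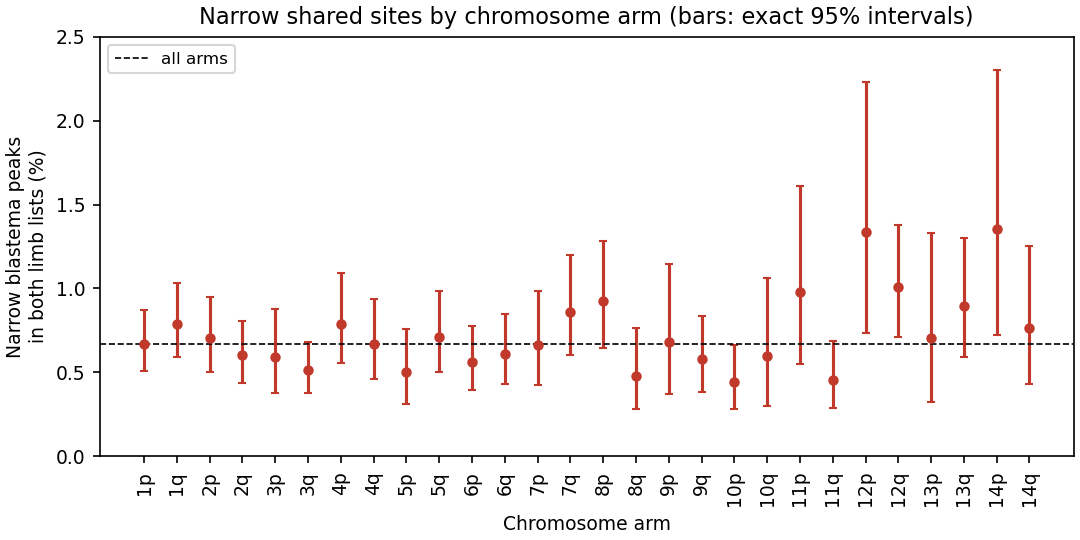
Narrow blastema peaks in both limb lists as a percentage of the narrow blastema peaks of each chromosome arm, with exact 95% intervals; the dashed line is the 0.669% of all arms. Values run from 0.443% on 10p to 1.35% on 14p.

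Along the arms, 123 of 802 sites, or 15.3% (12.9 to 18.0), lay in the first 10% of their arm, counted from base 1 to the last peak of any list, and 166, or 20.7% (17.9 to 23.7), in the last 10%. For shared peaks of medium width these shares were 13.6% and 17.8%, for broader ones 11.9% and 15.5%, and for narrow peaks not in both limb lists 11.9% and 13.9%. Narrow peaks with the systemically activated list alone had 12.4% and 14.8%, and those with the intact list alone 13.1% and 17.6%. Of 1374 windows of 20 Mb with a blastema peak, 862 held none of the sites and 12 held 5 or more. The fullest was on 12q segment 0 from 200000001 to 220000000, with 10 of its 139 narrow blastema peaks among the sites, beside 22 shared peaks of medium width and 29 broader ones. The folds of the 10 sites ran from 3.36 to 16.8 in blastema, from 3.67 to 16.1 in systemically activated limb and from 3.39 to 17.3 in intact limb, and the site from 201236693 to 201237189 was the highest in each list.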

How the data were processed

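The submitters' processing notes name Bowtie2 2.3.2 and MACS2 as the tools behind the peak lists. Genome build, read shift, duplicate handling and MACS2 version are unknown from the sources used here. The 7 samples went into 4 deposited lists, 1 per group and 1 for all samples, so no list has replicates and depth is known per list only. Per peak, the authors deposited a score (not used further), a fold (ratio of summit pileup to background, each plus 1), a −log10 p and a −log10 q, besides the summit offset.

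Whole pileups and backgrounds were solved from fold and −log10 p within 0.001, which gave 1 answer for 100% of blastema and at least 99.9% of limb peaks, and the solver was tested on simulated data. Where several limb peaks overlapped a site, the one of highest −log10 q was used. Named sites follow a rule by fold, percentile, width, width ratio, summit spread and isolation. Members, lists and this rule were chosen with earlier results of these data known. Positions are 1-based within the numbered segments into which the files cut long arms. No genome of the files' build was at hand, so genes, annotation and sequences were not analysed here. Python 3.11.15 and scipy 1.17.1 were used.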

Additional observations from a re-analysis of the deposited data

How the results depend on the processing

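No paired analysis was possible because each group has 1 pooled list, and no replicate could be left out for the same reason. Merging peaks within 100 bases and including unplaced sequences moved no result beyond its interval or 1.5 times its count. For shared peaks of 500 bases or more, and for narrow peaks not in both limb lists, the lowest gap to another blastema peak was already 100 bases. Merging at that distance could thus join few peaks, and nothing is concluded from it. Sites numbered 311 when every list was held to a −log10 q of 5 or more, 323 when held to a fold of 5 or more, 345 with group lists cut to equal length, 396 under 400 bases and 1547 under 600 bases, against 802; fewer or wider peaks were eligible by construction. In the same order the share of narrow blastema peaks was 1.2%, 5.86%, 19.3%, 0.389% and 1.18%, and it was 0.447% with 50% of each interval shared and 0.533% with the blastema summit inside both limb peaks. Sites with both limb summits near made up 64.0%, 61.0%, 59.4%, 42.7% and 32.6%, then 46.4% and 45.5%, and 17.7% within 25 or 60.2% within 100 bases. The systemically activated peak was wider at 6.75%, 4.02%, 2.32%, 18.9% and 6.46%, and the intact peak at 13.5%, 10.2%, 8.70%, 24.2% and 12.0%. Sites at the lowest background were 19.3%, 28.8%, 19.1%, 19.4% and 9.24%. Another blastema peak within 1 kb was found at 13.3% with the fold filter and 15.4% with cut lists, which both left fewer blastema peaks to be neighbours. With the lists unchanged, another blastema peak was found at 20.0% within 500 bases and 40.9% within 5 kb. The median percentile of −log10 q was 88.4 for blastema, 47.8 for systemically activated limb and 56.5 for intact limb. The values for these lists were 94.9, 60.8 and 73.3 with the −log10 q filter, 84.8, 66.4 and 74.8 with the fold filter, 83.4, 73.2 and 76.9 with cut lists, 92.0, 58.1 and 64.1 with 50% shared, and 92.0, 54.6 and 63.0 with the summit rule. It was 52.1 in the systemically activated list under 400 bases and 89.9 in the blastema list under 600 bases. For values with no cause named, the cause was not tested.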
